A study of Mus musculus with 12 samples.

Results

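The 8 genes described here belong to the MHC class II pathway. They were taken by symbol, through their Ensembl mouse identifiers, from a table of read counts for 25700 genes, and all 8 were found. The set was chosen because H2-DMb1 was known to be much higher in the mSC gate of these same libraries, so differences that involve mSC are given as a description, without p-values. Schwann cells (SCs), the glia that ensheath peripheral axons, were sorted from P5 sciatic nerves of mice that carried P0Cre, a reporter that yields eYFP after recombination, and β-actin DsRed, in every gate. P0Cre acts in the SC lineage, so eYFP marked SCs and not the other cells of the nerve. The allSC gate took the whole eYFP-positive population, the mSC gate a cloud enriched in myelinating SCs and the nmSC gate a cloud enriched in SCs that did not myelinate, separated by eYFP and side scatter. Each gate had 4 libraries, each from 1 mouse, and the labels repeat the same 4 subject numbers in each gate. The paper reports mice of both sexes in every gate. The allSC cells are a mixture of the kinds of cell that the other gates enrich. Gates are enriched populations rather than pure cell types.

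MHC class II molecules are heterodimers that present peptides from endosomes to CD4 T cells. They assemble with the invariant chain, encoded by Cd74, and H2-DM, a heterodimer of an α chain (H2-DMa) and a β chain (H2-DMb1 or H2-DMb2), later removes the last invariant chain fragment and edits the bound peptides. Transcription of these genes classically depends on CIITA, a coactivator induced by interferon-γ and recruited to X and Y boxes by the RFX, CREB and NF-Y factors. Professional antigen-presenting cells are the usual site of expression, and SCs are known to acquire class II under inflammation.

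Total counts lay between 8180927 and 16918122 per library, and TMM factors between 0.744 and 1.28, lowest in mSC and highest in nmSC. CPM below means the count of a gene per 1000000 counts of the library size after TMM scaling. SC markers followed the gates, except for Sox10, a marker of all SCs. Of the 9 listed, Sox10 was the 1 not called in any comparison, at 266 CPM in nmSC and 267 in allSC and mSC. The myelin genes Mbp and Ncmap and the glial S100b were higher in allSC than in nmSC, and Ngfr, Ncam1 and L1cam were lower. Of the 8 members, 7 passed the filter on low counts and were tested among 18597 genes, while Cd74 did not pass.

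Promoter sequences show how 5 of the 8 genes carry the class II motifs. The RefSeq promoter table (GRCm38.p6) held 6 promoters for H2-DMa (with 2 start sites), H2-DMb1, H2-DMb2, H2-Aa and H2-Eb1, and the 250 bases before each start were searched on both strands for an X core, AGNNACNGA, and a Y box, ATTGG. In all 32536 promoters of the table, 14.7% held the X core, 33.8% the Y box and 0.181% an X core followed by a Y box on the same strand 10 to 30 bases later. H2-DMb1 and H2-Eb1 had that arrangement, and H2-DMb2 and H2-Aa held a Y box without a match to the X core. Near matches were not counted, so the lack of a match does not show that a gene lacks an X box. Stretches of 20 bases around the matches are shown 5′ to 3′ on the strand of the gene, with the matched motif in capitals.
H2-DMb1 X core (chr17:34153091-34153110, plus strand): tacctAGTAACTGAtgatgc
H2-Eb1 X core (chr17:34305770-34305789, plus strand): taactAGCAACTGAtgatgc
H2-DMb1 Y box (chr17:34153122-34153141, plus strand): actcagtgATTGGtctgacc
H2-DMb2 Y box (chr17:34145151-34145170, plus strand): acttagtgATTGGactgact
H2-Eb1 Y box (chr17:34305800-34305819, plus strand): tgatgctgATTGGctcccag
H2-Aa Y box (chr17:34287860-34287879, minus strand): attttctgATTGGttctggc
The X core began 95 bases before the RefSeq start in H2-DMb1 and 92 in H2-Eb1, and the Y box 61 and 59 bases before it. In the GENCODE transcript H2-DMb1-201 both matches lie inside exon 1, from 34153072 to 34153453. The window of the upstream H2-DMa start held no match to either motif and that of its other start held 1 Y box. A match describes letters in a window, and the 2 genes that share the full arrangement, H2-DMb1 and H2-Eb1, had very different levels in these cells, as given next.

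H2-DMb1 was the gene for which the set was chosen. It lies on chromosome 17 from 34153072 to 34160230 (GRCm38, plus strand, ENSMUSG00000079547). Its level in the 4 nmSC libraries, in replicate order, was 1.54, 1.53, 2.02 and 1.65 CPM. In allSC it was 33.9, 31.6, 28.1 and 29.6 CPM, and in mSC 71.4, 81.8, 60.5 and 79.2 CPM. The 3 gates did not overlap, and the spread within each was small beside the steps between them. The raw counts behind these values were 16 to 27 in nmSC, 294 to 472 in allSC and 634 to 1051 in mSC, so the nmSC level rests on few reads. The log2 fold change of mSC over nmSC was 5.43 (SE 0.173), or 43.0-fold, and that of mSC over allSC was 1.25 (SE 0.134).

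H2-DMa, which encodes the partner chain of the same heterodimer, followed H2-DMb1. It lies on chromosome 17 from 34119541 to 34139101 (plus strand, ENSMUSG00000037649). Its level was 3.27, 4.00, 4.41 and 5.01 CPM in nmSC and 71.4, 56.4, 62.1 and 58.5 CPM in allSC. In mSC it was 124, 138, 127 and 207 CPM, again with no overlap between gates, and mSC replicate 4 stood above the other 3. The log2 fold change was 5.14 (SE 0.202) for mSC over nmSC, or 35.2-fold, and 1.26 (SE 0.165) for mSC over allSC. Among 9405 genes with a mean of at least 10 CPM, H2-DMb1 had the 5th and H2-DMa the 6th highest log2 fold change of mSC over nmSC.

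The comparison of allSC with nmSC was not used to choose the set, but it shares the nmSC libraries with the comparison that was, and allSC holds cells of the kind that mSC enriches. H2-DMb1, the gene behind the choice, is therefore given without a p, and was 18.1-fold higher in allSC (log2 fold change 4.18, SE 0.170). H2-DMa was 14.7-fold higher (log2 fold change 3.88, SE 0.194, edgeR quasi-likelihood test, adjusted p = 8.64e-11), with an exact two-sided permutation p of 0.0286, the smallest that 4 against 4 libraries allow. Because of the shared libraries this p is not independent of the choice either. Over all tested genes, 7.54% were called higher and 2.83% lower in allSC at an adjusted p under 0.05, and of the 7 members tested these 2 were called higher and 0 lower. The median log2 fold change of the 7 was 0.11, against -0.040 over all tested genes. Leaving out each library in turn kept the log2 fold change of H2-DMb1 between 4.13 and 4.28 and that of H2-DMa between 3.79 and 3.99.

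**Figure D1:**
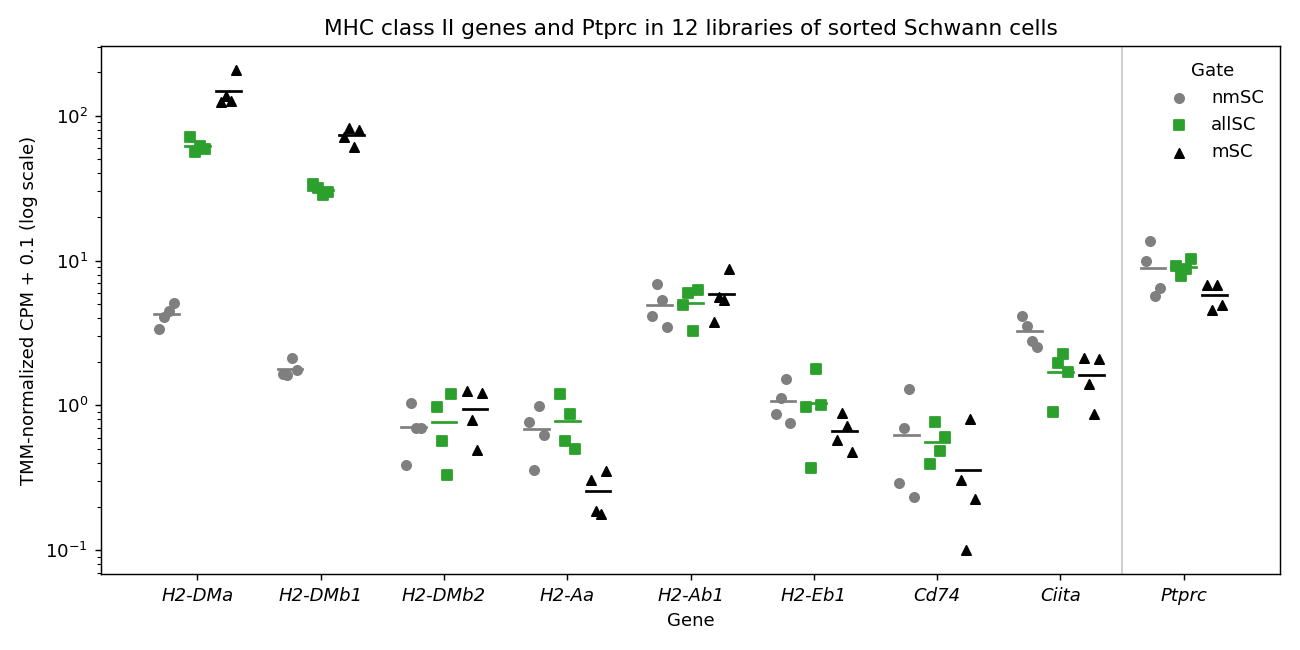
Level of the 8 class II genes and Ptprc in each of 12 libraries (vertical axis, TMM-normalized CPM plus 0.1 on a log scale), with 1 point per library, a short line at the mean of each gate and the gates nmSC, allSC and mSC side by side. H2-DMa and H2-DMb1 step up from nmSC through allSC to mSC without overlap, whereas H2-Ab1 lies near 5 CPM in every gate and the other members lie mostly under 4 CPM.

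The ratio of the 2 chains varied far less than their levels. The H2-DMa count was 2.49 ± 0.426 times the H2-DMb1 count in nmSC, 2.02 ± 0.185 times in allSC and 2.03 ± 0.428 times in mSC (mean ± SD, n = 4). The log2 ratio differed by -0.29 between allSC and nmSC, which a two-sided exact permutation test did not separate (p = 0.114). Per kb of the union of exons, which is 3448 bases for H2-DMa and 1681 for H2-DMb1, the level of H2-DMa was 1.21 times that of H2-DMb1 in nmSC, 0.985 times in allSC and 0.991 times in mSC. Per kb of the mean length of their annotated transcripts, a scale chosen after seeing the data, these ratios were 2.28, 1.85 and 1.86, so which chain was the more abundant depends on the length used. Replicate 4 of mSC had the highest ratio of that gate, at 2.61.

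**Figure D2:**
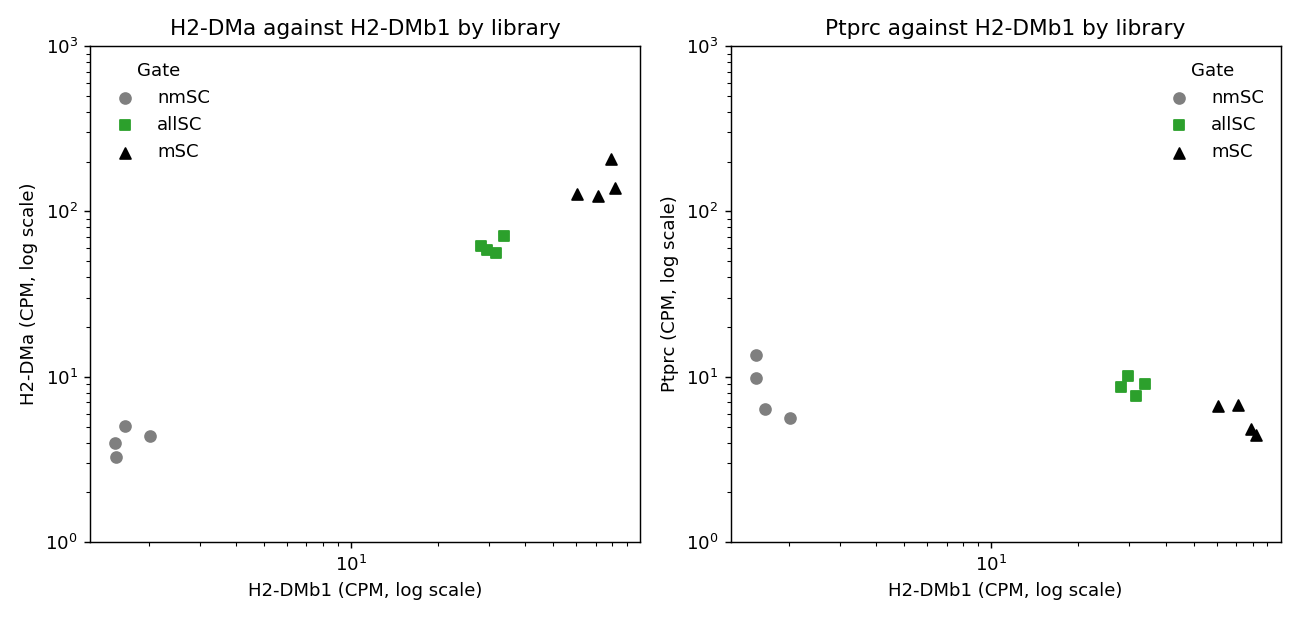
H2-DMa (left) and Ptprc (right) against H2-DMb1, each point 1 library and both axes in TMM-normalized CPM on log scales. H2-DMa rises with H2-DMb1 from nmSC to mSC, while Ptprc stays between 4.44 and 13.5 CPM over the whole range of H2-DMb1.

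The second β chain gene, H2-DMb2, did not share the step. It lies between H2-DMa and H2-DMb1 on chromosome 17, from 34143307 to 34151555 (plus strand), and had 3 to 17 counts per library. Its level was 0.604 ± 0.265 CPM in nmSC, 0.671 ± 0.394 in allSC and 0.841 ± 0.367 in mSC (mean ± SD, n = 4), and the gates overlapped. The log2 fold change of allSC over nmSC was 0.11 (SE 0.544, adjusted p = 0.949), with a 95% interval of -0.96 to 1.18, so a difference of about 2-fold was not detectable at this depth. The transcripts of H2-DMb1 and H2-DMb2 are similar, with 22.7% of the 50-base windows of H2-DMb1, and 7.34% of its windows as long as a whole read, found also in H2-DMb2. The handling of reads that match both was not stated, so the split between them is uncertain. With the counts of both summed, the log2 fold change of allSC over nmSC was 3.77.

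The genes of the class II molecules that hold the peptide stayed low in every gate. H2-Ab1, the β chain of I-A (chromosome 17, 34257689 to 34269419, plus strand), was the highest of them. Its level was 4.04, 6.81, 5.23 and 3.36 CPM in nmSC, 4.81, 5.90, 3.16 and 6.14 CPM in allSC and 3.67, 5.48, 5.21 and 8.62 CPM in mSC. The gates overlapped fully. The log2 fold change of allSC over nmSC was 0.041 (adjusted p = 0.965), with a 95% interval from -0.52 to 0.60, and that of mSC over nmSC was 0.22 (SE 0.287).

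H2-Aa encodes the α chain that pairs with the H2-Ab1 product (chromosome 17, 34282744 to 34287823, minus strand). It had 3 to 12 counts in nmSC, 4 to 15 in allSC and 1 to 3 in mSC. Over the 4 libraries of a gate, the 7 counts in mSC against 30 in nmSC give a ratio of 0.251 (95% exact interval 0.0931 to 0.583, counting error only), and against 36 in allSC a ratio of 0.213 (0.0799 to 0.485). Between allSC and nmSC the log2 fold change was 0.22 (SE 0.507, adjusted p = 0.87). H2-Eb1, the β chain of I-E (chromosome 17, 34305867 to 34316674, plus strand), had 3 to 22 counts per library and 0.968 ± 0.338 CPM in nmSC, 0.936 ± 0.585 in allSC and 0.564 ± 0.178 in mSC, with a log2 fold change of -0.060 for allSC over nmSC (SE 0.490, adjusted p = 0.97). H2-Eb1 shares its locus with the gene model Gm20513. H2-Ea, the α chain gene of I-E, was not analysed here.

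Cd74, the invariant chain gene (chromosome 18, 60803848 to 60812652, plus strand), had 4, 10, 5 and 5 counts in allSC, 3, 0, 9 and 1 in mSC and 2, 7, 16 and 2 in nmSC. It did not reach the filter and was not tested. In antigen-presenting cells this gene is among the most abundant transcripts of the pathway. Here its mean per kb of exon union was 0.315 CPM in nmSC, 0.275 in allSC and 0.153 in mSC.

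Ciita, the class II coactivator (chromosome 16, 10480059 to 10528418, plus strand), was not higher where H2-DMa and H2-DMb1 were. Its level was 4.04, 3.41, 2.69 and 2.44 CPM in nmSC, 0.801, 1.88, 2.16 and 1.61 CPM in allSC and 2.04, 1.30, 0.777 and 2.00 CPM in mSC. All 4 nmSC libraries lay above the libraries of both other gates. The log2 fold change of allSC over nmSC was -0.95 (SE 0.356), with an exact permutation p of 0.0286 but an adjusted p of 0.108 over all genes in edgeR, so it did not pass the test. With libraries scaled by total count alone it was -1.22 and passed (adjusted p = 0.032). For mSC over nmSC the log2 fold change was -1.04 (SE 0.362). Ciita overlaps the gene Dexi in the annotation, and the strand setting of the counting was not stated, so reads of the overlap cannot be told apart.

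Levels of the members can be set against genes that SCs are not thought to use. Over 1508 olfactory and vomeronasal receptor genes, a comparison chosen after seeing the data, the 95th percentile of the level per kb of exon union was 0.759 CPM in nmSC, 0.668 in allSC and 0.513 in mSC. H2-DMa, H2-DMb1 and H2-Ab1 lay above it in every gate, at 1.21, 1.00 and 1.89 CPM per kb in nmSC and 43.2, 43.6 and 2.24 in mSC. In allSC H2-DMb1 was at 18.3 and H2-Ab1 at 1.95 CPM per kb. H2-DMb2, H2-Aa, H2-Eb1, Cd74 and Ciita lay below it in every gate, at 0.0407 to 0.498 CPM per kb. The same 3 lay above and the same 5 below with the mean transcript length. In allSC and mSC the order of levels per kb of exon union was thus H2-DMb1 and H2-DMa together, which did not differ beyond their spread, then H2-Ab1, then the rest.

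In the 2 comparisons that involve mSC the calls are given only as a description. Of the 7 members tested, H2-DMa and H2-DMb1 were called higher and H2-Aa and Ciita lower in mSC than in nmSC, where 20.4% of all tested genes were called higher and 20.2% lower. The call of H2-Aa was lost without mSC replicate 2 (log2 fold change -1.72), mSC replicate 3 (-1.68) or nmSC replicate 3 (-1.62), and H2-Aa did not reach the filter without allSC replicate 1 or with only the 2 gates compared. That of Ciita was lost without nmSC replicate 1 (-0.89), nmSC replicate 2 (-0.99), mSC replicate 2 (-0.96) or mSC replicate 3 (-0.79). Against allSC, H2-DMa and H2-DMb1 were called higher and H2-Aa lower in mSC, where 8.76% of genes were called higher and 8.80% lower. The H2-Aa call there was lost without mSC replicate 2 (-1.94), mSC replicate 3 (-1.88) or allSC replicate 3 (-2.07), and without allSC replicate 1 the gene did not reach the filter. Nothing is read from these counts, since the members were chosen on mSC.

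Among leukocytes, professional antigen-presenting cells express class II genes strongly, so leukocyte markers were followed beside the members. Ptprc, which encodes CD45, was at 9.81, 13.5, 5.61 and 6.40 CPM in nmSC, 9.11, 7.70, 8.63 and 10.1 CPM in allSC and 6.73, 4.44, 6.68 and 4.87 CPM in mSC. Its log2 fold change of allSC over nmSC was 0.014 (SE 0.243, adjusted p = 0.987), where H2-DMb1 differed by 4.18, and it was -0.62 for mSC over nmSC. Per kb of exon union Ptprc was at 0.482, 0.485 and 0.310 CPM in nmSC, allSC and mSC. These levels lay below the 95th percentile of the receptor genes in every gate. Per kb of mean transcript length Ptprc was at 3.03, 3.05 and 1.95 CPM, above the matching percentile in every gate. Whether Ptprc stood above the receptor genes thus depends on the length used. Of 25 leukocyte markers, 15 were tested, and 0 were called higher and 0 lower in allSC than in nmSC, while 0 were called higher and 4 lower in mSC than in nmSC (Cd68, Itgam, Itgax and Ms4a1), beside 20.2% of all tested genes called lower there. Their summed level was 37.1 to 56.8 CPM in nmSC, 36.8 to 54.5 in allSC and 26.1 to 37.3 in mSC, and Aif1 was at 0 in all 4 mSC libraries. Csf1r, a macrophage receptor gene and the highest of the list, was at 11.6 ± 2.88 CPM in nmSC, 11.4 ± 1.82 in allSC and 11.5 ± 3.02 in mSC. In allSC replicate 2 the myeloid genes Lyz2 (5.09 CPM, against 0.231 to 0.806 in the other 3 allSC libraries) and C1qb (1.94 against 0.101 to 0.364) were high. That library held the highest allSC level of Cd74 but not of H2-DMb1. These 2 genes were singled out after their values were seen.

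Of 7 markers of other nerve cells (endothelial, perivascular, epineurial and related), 6 were tested and 0 were called in allSC against nmSC. Over all tested genes, 7.54% were called higher and 2.83% lower there. In mSC against nmSC, the pericyte marker Pdgfrb was called higher (60.8 CPM in nmSC and 129 in mSC, log2 fold change 1.09), and Pecam1 and Col2a1 were called lower. In that comparison 20.4% of all tested genes were called higher and 20.2% lower. The other 3 tested, Pdgfra, Cd34 and Acta2, were not called. Acta2, which marks pericytes and vascular smooth muscle, was at 1.09 CPM in nmSC and 0.832 in mSC. The summed level of the 7 markers was 58.1 to 101 CPM in nmSC, 103 to 122 in allSC and 67.4 to 183 in mSC, most of it Pdgfrb. This sum, and Pdgfrb in mSC, moved in the same direction as H2-DMa and H2-DMb1, and their part in the difference was not tested. In bulk libraries, fewer cells of a type and less RNA per cell cannot be told apart.

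The position of allSC between the other gates compares the mixture with its parts. Set on a linear scale with nmSC at 0% and mSC at 100%, the mean of allSC lay at 40.7% for H2-DMb1 and 40.0% for H2-DMa. For the SC genes used as markers it lay at 45.5% for Mbp, 37.9% for Ncmap and 36.5% for S100b. Within the 4 subject numbers it ran from 36.1% to 46.3% for H2-DMb1 and from 26.5% to 56.4% for H2-DMa. The ranges over subject numbers overlapped between both DM genes and these markers.

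The 5 genes whose level was most like that of H2-DMb1 were taken by Pearson's r of log2(CPM + 1) over the 12 libraries among 9404 genes with a mean of at least 10 CPM. They were Chst2, a carbohydrate sulfotransferase gene (r = 0.999), Mbp, a major myelin protein gene (r = 0.998), and Serpinb6b, Kcnk1 and Ogn (r = 0.997 each), which encode a serine protease inhibitor, a potassium channel and a matrix proteoglycan. H2-DMa ranked 7th with r = 0.996. These correlations describe the 3 gates more than single libraries, since the libraries fall into 3 groups. Chst2 was at 6.38 ± 0.614 CPM in nmSC, 86.8 ± 8.10 in allSC and 205 ± 19.9 in mSC, and Kcnk1 at 16.9 ± 2.18, 169 ± 9.33 and 360 ± 24.5 CPM. Only 1 of the 5 was again among the top 5 by Spearman's correlation, 3 of 5 without mSC replicate 3 and 2 of 5 without mSC replicate 4, so the order near the top is not firm.

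Other genes of class II presentation were a list of 16, of which 14 were in the table and 9 were tested. Against nmSC, 4 were higher in allSC (Ctsl, Ctsd, Sppl2a and Marchf8) and 0 lower, with a median log2 fold change of 0.23, beside the 7.54% of all genes called higher. Ctsd, the lysosomal protease cathepsin D, was at 660 ± 110 CPM in nmSC, 1020 ± 37.2 in allSC and 1489 ± 139 in mSC, a log2 fold change of 0.63 for allSC over nmSC (adjusted p = 0.00243). Ctsl, cathepsin L, which can cleave the invariant chain, was at 64.0 ± 10.9, 110 ± 6.63 and 187 ± 54.2 CPM, a change of 0.78 (adjusted p = 0.00453). Sppl2a, an intramembrane protease that clears an invariant chain fragment, changed by 0.48 (adjusted p = 0.0222). Marchf8, a ubiquitin ligase that acts on membrane proteins, changed by 0.53 (adjusted p = 0.0252). The calls of Ctsl and Ctsd held with each library left out, whereas that of Sppl2a was lost in 6 of 12 cases, with log2 fold changes from 0.41 to 0.56, and that of Marchf8 in 5 of 12, from 0.44 to 0.60, and both were lost with libraries scaled by total count alone (0.22 and 0.28). Ctsb, cathepsin B, was at 242 ± 24.0 CPM in nmSC and 283 ± 19.3 in allSC (adjusted p = 0.325). The cathepsins serve all lysosomes and are not particular to class II. In mSC against nmSC, 5 of the 9 were called higher and 0 lower, beside 20.4% and 20.2% of all tested genes. Ctss, the cathepsin of antigen-presenting cells, stayed at 0 to 12 counts per library and was not tested.

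The factors that bind the class II promoter did not show the pattern of H2-DMb1. Of 15 genes for these factors and for interferon-γ signalling, all tested, 0 were called higher and 1 lower in allSC than in nmSC, beside 7.54% and 2.83% of all tested genes, with a median log2 fold change of -0.15. The 1 called was Irf1, an interferon-induced factor, at 199 ± 14.4 CPM in nmSC, 127 ± 31.4 in allSC and 31.6 ± 8.06 in mSC, and its log2 fold change of allSC over nmSC was -0.65 (adjusted p = 0.0188). This call was lost without nmSC replicate 1, nmSC replicate 2, allSC replicate 3 or allSC replicate 4, with log2 fold changes of -0.55 to -0.82 over all libraries left out. The genes of the RFX complex (Rfx5, Rfxank and Rfxap) and of NF-Y (Nfya, Nfyb and Nfyc) were not called in that comparison. Ifngr1, a chain of the interferon-γ receptor, was at 81.6 ± 14.6, 79.9 ± 3.27 and 80.8 ± 6.74 CPM, and the kinase gene Jak1 at 89.8 ± 9.01, 88.9 ± 7.57 and 74.6 ± 12.3 CPM, in the order nmSC, allSC and mSC. In mSC against nmSC, where 20.2% of all tested genes were called lower and 20.4% higher, Creb1, Irf1 and Irf2 were called lower and Jak2 higher.

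**Figure D3:**
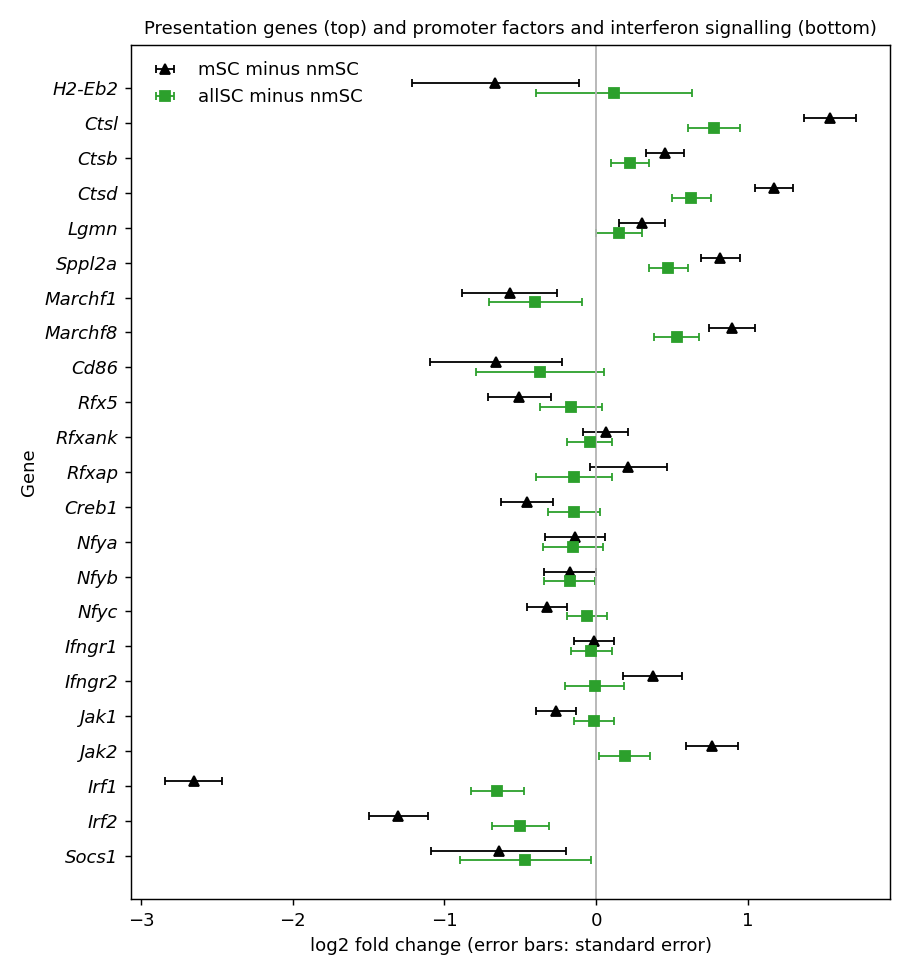
Log2 fold change (horizontal axis) with its standard error for tested genes of class II presentation (upper 9) and of promoter factors and interferon-γ signalling (lower group), as triangles for mSC minus nmSC and squares for allSC minus nmSC. Ctsl and Ctsd lie to the right and Irf1 to the left in both comparisons, which share the nmSC libraries.

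The genes beside H2-DMb1 on chromosome 17 moved otherwise. They serve MHC class I, as subunits of the immunoproteasome (Psmb8 and Psmb9) and of the peptide transporter (Tap1 and Tap2), except for Brd2, a chromatin reader next to H2-DMa. Psmb8 was at 9.29 ± 0.938 CPM in nmSC, 3.99 ± 0.676 in allSC and 0.538 ± 0.272 in mSC, and fell by 1.22 on the log2 scale in allSC (adjusted p = 0.00127), a call that held with each library left out. Tap1 was at 27.8 ± 4.90, 16.9 ± 2.04 and 5.30 ± 1.99 CPM and fell by 0.72 in allSC (adjusted p = 0.0329), a call lost in 5 of 12 cases with 1 library left out (-0.80 to -0.58). Of the 5 genes, 0 were called higher and 2 lower in allSC than in nmSC, beside 2.83% of all tested genes called lower. In mSC 4 were called lower than in nmSC, beside 20.2% of all tested genes, and the log2 fold change was -4.15 for Psmb8, -2.38 for Tap1 and -2.38 for Tap2. Brd2 overlaps H2-DMa in the annotation, as do 3 other gene models. The level of Brd2 was 132 ± 6.03 CPM in nmSC, 129 ± 5.86 in allSC and 122 ± 13.9 in mSC. Its log2 fold change of allSC over nmSC was -0.039 (adjusted p = 0.906), and that of H2-DMa was 3.88. The part of reads from overlapping models in the H2-DMa counts was not tested. Tap1 and Psmb9 overlap each other, and Psmb8 and Tap2 overlap Gm20496, so reads there are uncertain in the same way. Within this stretch of tested genes, H2-DMa and H2-DMb1 alone were called higher in allSC than in nmSC.

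**Figure D4:**
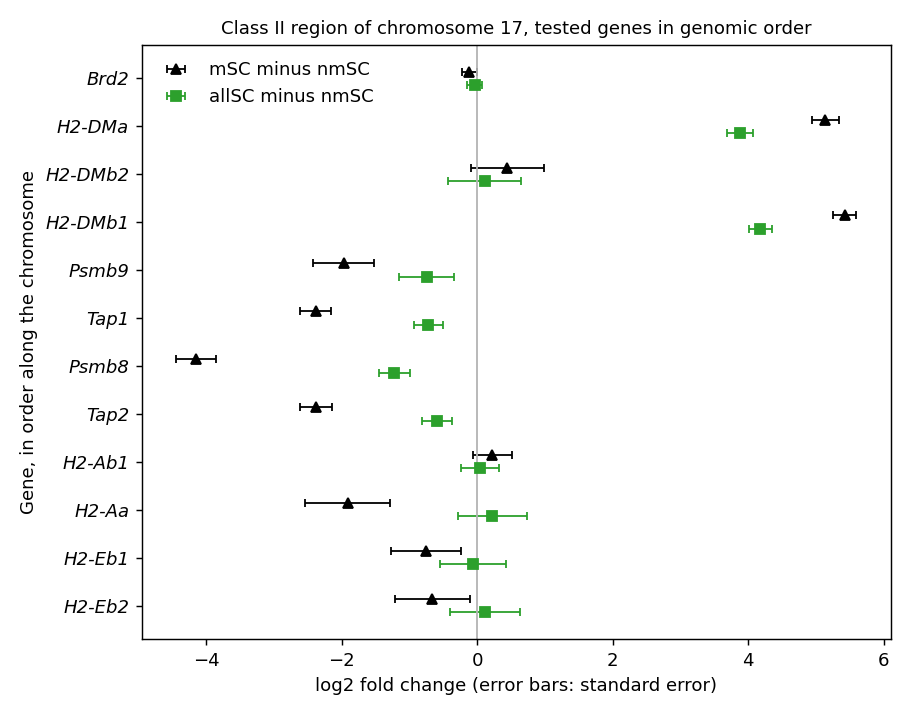
Log2 fold change (horizontal axis) with its standard error for 12 tested genes of the class II region, listed from top to bottom in their order along chromosome 17, as triangles for mSC minus nmSC and squares for allSC minus nmSC. H2-DMa and H2-DMb1 lie at 3.88 to 5.43, H2-DMb2 between them lies at 0.11 and 0.45, and Psmb9, Tap1, Psmb8 and Tap2 lie below 0.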

How the data were processed

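RNA from SCs sorted by gate was amplified by Smart-seq2 and sequenced without molecular identifiers. The deposited values are raw counts per gene, made by the authors with STAR 2.6.1c and featureCounts on the mouse build GRCm38.p5 per the labels, whereas the methods text names a human build. Strand and multi-mapping options are not given in the sources used here. The labels give each library its gate and subject number, but not the sex of each mouse, which was not used. The paper reports both sexes in equal number in each gate, and that samples of a gate clustered in same-sex pairs. The spread within a gate therefore includes any difference between the sexes.

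Symbols, positions and lengths came from GENCODE M21 (GRCm38), which matched 25587 of 25700 genes. Counts were scaled by TMM and tested with the edgeR 4.0.16 quasi-likelihood test in R 4.3.3 in 1 model of 12 libraries, after its filter on low counts, with Benjamini-Hochberg adjustment over 18597 genes at a threshold of 0.05. Single genes were also tested by two-sided exact permutation of log2(CPM + 1). Intervals of count ratios cover counting error only, while those of log2 fold changes come from the SE of the fit over libraries. Members and gene lists were chosen with earlier results of these data known. The genes named are the members, Ptprc, the 5 genes most like H2-DMb1 and, from each list, those called in allSC minus nmSC plus the 3 with the highest mean CPM, and others are named where a count of 5 or fewer rests on them. Some genes of the lists are counted but not reported singly here.

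The labels give libraries of the 3 gates a shared subject number, which was read as the same mouse. The correlation of deviations between libraries of 1 number was -0.093 to 0.17 for allSC and nmSC, and -0.23 to 0.15 for mSC and nmSC. For mSC and allSC it was 0.039 to 0.25, above 0 for every number. No libraries of a gate were duplicates (chi-square per degree of freedom 4.03 to 95.7). The alternatives were other scalings, no filter, DESeq2 1.42.0, a model of the 2 gates compared, a block for mouse number, summed paralogs and each library left out. The tests were checked on simulated counts, where DESeq2 made more false calls than its nominal rate. A single draw went over the limit set for DESeq2, so after that result the limit was applied to the mean of 10 draws, which passed.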

Additional observations from a re-analysis of the deposited data

Results flagged for a closer look

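Dixon's test was run on 48 groups of 4 libraries, for the members, Ptprc, Lyz2, C1qb and the genes most like H2-DMb1, and chance alone gives about 1 in 20 such groups. A library stood far from the others of its gate in 4 of them. H2-DMa was at 207 CPM in mSC replicate 4, against 124 to 138 CPM in the other 3. Serpinb6b was at 66.8 CPM in the same library, against 48.2 to 49.8 CPM, and this library had the lowest TMM factor of all, 0.744. Without it the log2 fold change of mSC over nmSC was 4.94 for H2-DMa. In allSC replicate 2, Lyz2 was at 5.09 CPM against 0.231 to 0.806 CPM, and C1qb at 1.94 CPM against 0.101 to 0.364 CPM. Lyz2 and C1qb were added after their values were seen.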

How the results depend on the processing

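The 2 calls in allSC minus nmSC, H2-DMa and H2-DMb1, held under every alternative run, with 2 members called in each library left out (range 2 to 2), and 3 with total count scaling, where Ciita passed. The call of H2-DMb1 is only a description, since the set was chosen for this gene. With a library left out the count ran from 2 to 4 in mSC minus nmSC and from 2 to 3 in mSC minus allSC. In mSC minus nmSC it was 5 with total count scaling, where H2-Eb1 (-1.30) was also called, and 3 with only the 2 gates, where 4 members reached the filter. Under the replicate block for mouse number the log2 fold change of H2-DMb1 was 4.17 and no member call of the 3 comparisons changed. The exact permutation test put H2-DMa and Ciita under 0.05, leaving aside H2-DMb1, the gene behind the choice. It put 0 members there in the paired sign-flip form and 0 to 0 with a library left out. The reason is that 4 pairs allow no p under 0.125 and 3 against 4 none under 0.0571. Of the 5 genes most like H2-DMb1, 1 remained by Spearman's correlation and 2 to 5 with a library left out.

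The log2 fold changes of allSC over nmSC of 5 uncalled genes changed sign, while that of Ciita stayed below 0. With total count scaling they were -0.15 for H2-DMb2, -0.019 for H2-Aa, -0.22 for H2-Ab1 and -0.26 for Ptprc, H2-DMb2 was -0.0060 under the block, and Ptprc was -0.016 with only the 2 gates. With a library left out they ran from -0.20 to 0.40 for H2-DMb2, -0.014 to 0.51 for H2-Aa, -0.10 to 0.25 for H2-Ab1, -0.52 to 0.27 for H2-Eb1 and -0.15 to 0.30 for Ptprc. H2-Aa did not reach the filter without allSC replicate 1.

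Total count scaling called 11864 genes in mSC minus nmSC, against 7540, and 2951 in allSC minus nmSC, against 1928, and moved the median log2 fold change of all genes from -0.16 to -0.73 and from -0.040 to -0.30. H2-DMb1 was then at 4.86 in mSC minus nmSC. Members with under 20 counts per library allow no statement on small differences.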
